A study of Bos taurus with 6 samples.

Results

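The sperm head is built on a layer of insoluble cytoskeletal protein, the perinuclear theca, which lies between the nuclear envelope and the membranes around it. The genes described here are 9 genes of that layer and of the actin-like cytoskeleton of the sperm head, chosen by symbol from the 47249 genes of the deposited table of expression. They are the actin-like genes ACTL7A, ACTL7B and ACTL9, the actin-related genes ACTRT2 and ACTRT3, calicin (CCIN), cylicin 2 (CYLC2) and the capping protein subunits CAPZA3 and CAPZB. All 9 were found, with 1 row each.

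The samples were testis tissue of untreated Wandong cattle. One group held 3 immature calves aged 3 ± 0.24 months, and the other held 3 andrologically mature bulls aged 3 ± 0.014 years. These ages follow the authors' Methods. The authors' Results give the spreads exchanged, as 0.014 months and 0.24 years. RNA depleted of ribosomal RNA was sequenced, with 1 library per animal, and each library is called calf or bull with the replicate number of its label. Whole tissue was sampled, so a lower value can come from fewer cells of a type or from less RNA per cell, which cannot be told apart here.

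As background, the theca has a subacrosomal part, which anchors the acrosome to the nucleus of the spermatid, and a postacrosomal part, the calyx, which meets the egg cytoplasm at fertilization. Calicin and the cylicins are basic structural proteins of the calyx and of the subacrosomal layer. The actin-like and actin-related proteins share the actin fold but are made mainly in haploid germ cells. Capping protein is a heterodimer of an alpha and a beta subunit that closes the barbed end of actin filaments. CAPZA1 and CAPZA2 encode alpha subunits found in most cells, CAPZA3 encodes the alpha subunit of male germ cells, and CAPZB encodes the beta subunit, of which a testis form is known.

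The values are FPKM, fragment numbers scaled to the length of the transcript and to the mapped fragments of the library, so levels of different genes can be set side by side. Groups were compared with limma on log2(FPKM + 1), and a gene was called at a Benjamini-Hochberg adjusted p under 0.05 and a difference of at least 1 in size. FPKM summed over genes ran from 587100 to 1099000 between libraries, and the median difference of all 18115 genes tested was 0.43, against which the differences below are to be read. The 8 spermatid markers examined were all called higher in the bulls, beside 35.7% of all genes. All 8 reached an FPKM of 1 in bull libraries only, so this count carries no test. The summed FPKM of these markers was 1.27 to 1.47 in the calves and 13910 to 15740 in the bulls. The library labelled calf 3 stood apart. Its 9 brain markers summed to 13900 FPKM, against 11.0 to 18.3 in the other 5 libraries. The 7 Sertoli cell markers summed to 437 in calf 3 and to 2811 and 2678 in calf 1 and calf 2. In calf 3, CLU alone had 422.5 and SOX9 13.7, and 3 of the markers (FSHR, GATA4 and WT1) were at 0. AMH had 736.5, 482.7 and 0.340 in calf 1, calf 2 and calf 3, and INHA had 955.4, 865.3 and 0.766. The 5 Leydig cell markers summed to 0.484 in calf 3, against 1399 and 1137. Calls and shares were therefore also computed without this library.

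Of the 9 genes, 8 were called higher in the bulls, 0 were called lower and CAPZB was not called. Over all genes tested, 35.7% were called higher and 9.61% lower. The median difference of the 9 genes was 6.70, against 0.43 for all genes. All 9 passed the filter on low values, but 8 of them did so through the bull libraries, so these counts describe the genes and carry no test of the list. The lowest bull lay above the highest calf for 9 of 9 genes, an arrangement found for 46.1% of all genes tested. Without calf 3, the same 8 genes were called higher and 0 lower, beside 37.9% and 13.6% of all genes, and their differences ran from 5.12 to 8.29, against 5.04 to 8.29 with it. After quantile normalization they were again 8 and 0, beside 21.1% and 25.1%.

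**Figure D1:**
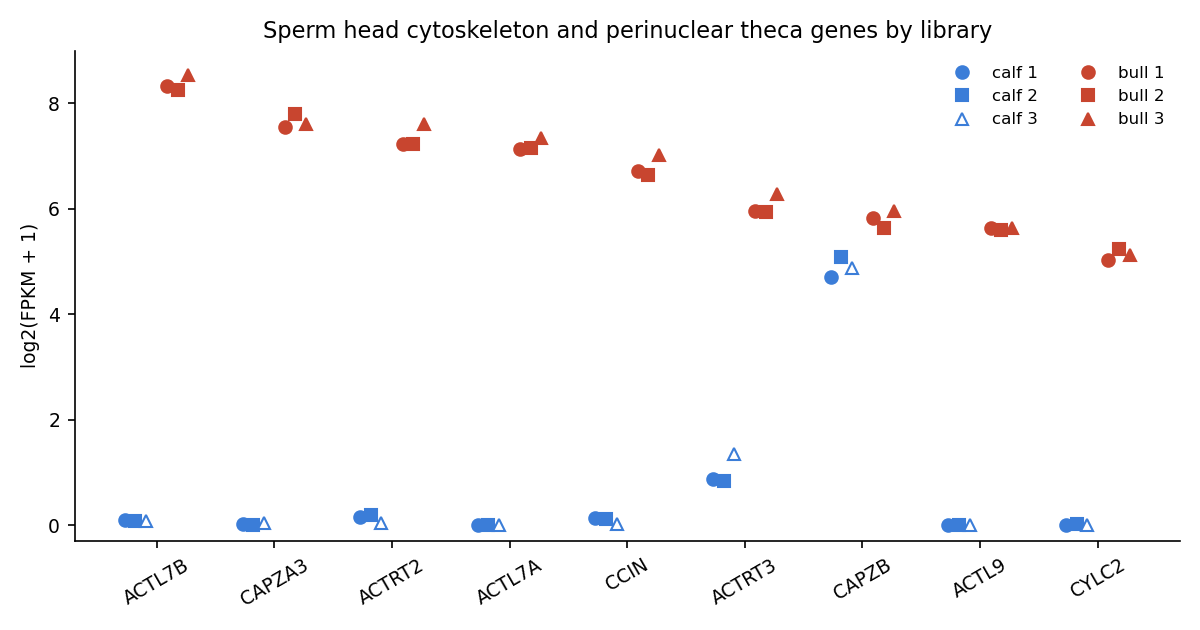
Level of each gene on the log2(FPKM + 1) scale (vertical axis) in every library, with calves in blue, bulls in red and the library labelled calf 3 as open triangles. The calf points of 7 genes lie at or close to 0, those of ACTRT3 near 1, and only CAPZB has calf points near the bull points.

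ACTL7B and ACTL7A encode actin-like proteins of the spermatid head and lie side by side on chromosome 8. ACTL7B (ENSBTAG00000019467, chromosome 8, 98462724 to 98464130) was measured at 0.0745, 0.0564 and 0.0527 FPKM in the calves and at 323, 304 and 371 in the bulls. It was the highest of the 9 genes in every bull and close to 0 in every calf. The difference in log2(FPKM + 1) was 8.29 (SE 0.14, limma adjusted p = 2.53e-06), place 22 among all increases. ACTL7A (ENSBTAG00000019468, chromosome 8, 98466288 to 98467807) was listed at 0 in all 3 calves and at 140, 142 and 161 in the bulls. A value above 0 was thus listed in the 3 bull libraries only, and no fold was computed against the values at 0. On the log2(FPKM + 1) scale the groups differed by 7.22 (SE 0.14, limma adjusted p = 2.53e-06).

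The ratio of these neighbours was taken within each bull. Whether it varies less than the ratio of genes lying apart was not tested. ACTL7B stood at 2.30, 2.14 and 2.30 times ACTL7A in bull 1, bull 2 and bull 3, with a mean of 2.25 ± 0.0943 (SD, n = 3). The end of ACTL7B and the start of ACTL7A are 2157 bases apart in the table. KLF4, a transcription factor gene of round spermatids and Sertoli cells and the nearest named gene on the far side of ACTL7B, was called higher, by 3.09 (limma adjusted p = 0.000434), at a distance of 1283388 bases.

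ACTL9 (ENSBTAG00000011255, chromosome 7, 17250902 to 17252340) encodes an actin-like protein linked, with ACTL7A, to the attachment of the acrosome and to the placement of the egg-activating phospholipase PLCZ1. It was listed at 0 in the 3 calves and at 48.5, 47.5 and 49.0 in the bulls. The 3 bulls were closely alike, with a coefficient of variation of 1.6%, the smallest of the 9 genes. The difference in log2(FPKM + 1) was 5.62 (SE 0.15, limma adjusted p = 3.59e-06).

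ACTRT2 and ACTRT3 encode actin-related proteins that were isolated from the calyx region of the theca or from spermatid nuclei. ACTRT2 (ENSBTAG00000017929, chromosome 16, 50032362 to 50074008) had values of 0.111, 0.145 and 0.0262 in the calves and of 149, 149 and 195 in the bulls. On the log2(FPKM + 1) scale the bulls exceeded the calves by 7.23 (SE 0.17, limma adjusted p = 3.14e-06). Bull 3 was the highest, and the other two bulls were nearly equal. ACTRT3 (ENSBTAG00000013141, chromosome 1, 97604626 to 97610506) had values of 0.838, 0.776 and 1.55 in the calves and of 61.4, 60.0 and 76.9 in the bulls. Of the 8 genes called higher it had the highest calf level, 1.06 ± 0.431 FPKM (SD, n = 3), and it was highest there in calf 3. The difference was 5.04 (SE 0.21, limma adjusted p = 1.38e-05), and 5.21 without calf 3.

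The X-linked relative ACTRT1 is not among the 9 genes, but its level can be set beside theirs. ACTRT1 was listed at 0 in the calves and at 25.1, 24.9 and 28.3 in the bulls, a difference of 4.76 that was called higher (limma adjusted p = 6.39e-06). ACTRT2 stood at 6.25 ± 0.537 times and ACTRT3 at 2.52 ± 0.169 times the level of ACTRT1 (SD, n = 3 bulls).

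Calicin and cylicin 2 are the structural proteins of the group. CCIN (ENSBTAG00000021696, chromosome 8, 60445847 to 60448238) was measured at 0.0919, 0.0893 and 0.0179 FPKM in the calves and at 104.5, 98.6 and 128 in the bulls. The groups were far apart, and calf 3 was the lowest library. The difference in log2(FPKM + 1) was 6.70 (SE 0.17, limma adjusted p = 3.36e-06). The whole CCIN locus, 2392 bases, lies within the locus of GLIPR2 in the table, so reads of the overlap could belong to either gene where the counting did not use strand. The authors' Methods describe a strand-specific library, and whether strand was used to make these values is not stated. GLIPR2, a Golgi-associated gene of the plant pathogenesis-related family, did not follow CCIN, with 11.5, 15.3 and 2.51 in the calves and 6.34, 6.15 and 5.59 in the bulls. GLIPR2 differed by -0.35 (limma adjusted p = 0.635), and by -1.02, called lower, without calf 3.

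CYLC2 (ENSBTAG00000015608, chromosome 8, 92554854 to 92572729) was listed at 0, 0.0190 and 0 in the calves and at 31.7, 36.6 and 33.9 in the bulls. It was the lowest of the 9 genes in each bull, and a single calf had a value above 0. In log2(FPKM + 1), the bulls lay higher by 5.12 (SE 0.16, limma adjusted p = 5.48e-06). Its X-linked paralog CYLC1, the other cylicin gene, had 0, 0.0128 and 0 in the calves and 22.01, 27.9 and 29.2 in the bulls, a difference of 4.76 (limma adjusted p = 9.91e-06). CYLC2 exceeded CYLC1 in all 3 bulls, by 1.44, 1.31 and 1.16 times.

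CAPZA3, the germ cell alpha subunit of capping protein (ENSBTAG00000013207, chromosome 5, 91334674 to 91335759), had values of 0.00933, 0 and 0.0342 in the calves and of 186, 221 and 194 in the bulls. It was next to ACTL7B in level in the bulls and nearly absent from the calf libraries. The difference in log2(FPKM + 1) was 7.63 (SE 0.14, limma adjusted p = 2.53e-06). The table places the start of PLCZ1, the phospholipase that sperm bring to the egg, 47 bases after the end of CAPZA3. PLCZ1 had 0.0608, 0.0935 and 0 in the calves and 45.0, 46.6 and 60.3 in the bulls, and was called higher by 5.61 (limma adjusted p = 6.18e-06). CAPZA3 stood at 4.14, 4.73 and 3.21 times PLCZ1 in the bulls.

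CAPZB (ENSBTAG00000004554, chromosome 2, 133201115 to 133340081), the beta subunit, was the exception. It had values of 25.2, 33.2 and 28.6 in the calves and of 55.6, 48.9 and 61.0 in the bulls, that is, 29.0 ± 4.01 and 55.2 ± 6.08 (SD, n = 3 each). The groups did not overlap, and calf 3 lay between the other two calves. In log2(FPKM + 1), bulls and calves differed by 0.91 (SE 0.17, 95% interval 0.49 to 1.33, limma adjusted p = 0.00518), which passed on p, as did 41.1% of all genes in this direction, and missed the required size, so CAPZB was not called. Without calf 3 it was 0.90, and without calf 2 it was 1.01 (limma adjusted p = 0.00839), which passed the call. After quantile normalization, where the median of all genes was -0.26, it was 0.14 (limma adjusted p = 0.509). The first 1247 bases of the CAPZB locus are shared with MICOS10, a gene of the mitochondrial cristae junction, which differed by 0.25 and was not called.

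The alpha subunits were then compared with each other. CAPZA1 had 43.4, 41.4 and 41.1 in the calves and 47.5, 49.6 and 42.9 in the bulls, a difference of 0.15 that was not called (limma adjusted p = 0.396) and that was -0.64 after quantile normalization. CAPZA2 had 29.2, 31.8 and 49.7 in the calves and 16.7, 18.7 and 18.6 in the bulls, with calf 3 well above the other calves. The difference of CAPZA2 was -0.96 (limma adjusted p = 0.0136), short of the required size. It was -0.73 without calf 3 and not called, whereas it was called lower without calf 1 (-1.10), without calf 2 (-1.04), after quantile normalization (-1.65), with median ratio scaling (-1.10) and with libraries rescaled to named Ensembl genes (-1.21).

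CAPZA3 made up 0.0129%, 0% and 0.0376% of the summed alpha FPKM in the calves and 74.4%, 76.4% and 75.9% in the bulls. A share within a library does not depend on its scaling. The mean was 0.0168% ± 0.0191 in the calves and 75.6% ± 1.05 in the bulls (SD, n = 3 each), with a two-sided exact permutation p of 0.1, the smallest that 3 against 3 libraries allow. The groups differed by 75.5 percentage points with calf 3 and by 75.5 without it, where the smallest possible p is 0.2.

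Set against the beta subunit, the alpha sum was 2.88, 2.21 and 3.18 times CAPZB in the calves and 4.51, 5.91 and 4.18 times in the bulls. The ratio was higher in each bull than in each calf, with means of 2.76 ± 0.498 and 4.87 ± 0.920 (SD, n = 3 each, exact permutation p = 0.1). The sum of CAPZA1 and CAPZA2 alone went the other way, from 2.76 ± 0.497 to 1.19 ± 0.197 times CAPZB (SD, n = 3 each, exact permutation p = 0.1). In both ratios the groups did not overlap. Without calf 3 the calf mean of either ratio was 2.54 ± 0.478 (SD, n = 2), and the smallest possible p is 0.2.

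**Figure D2:**
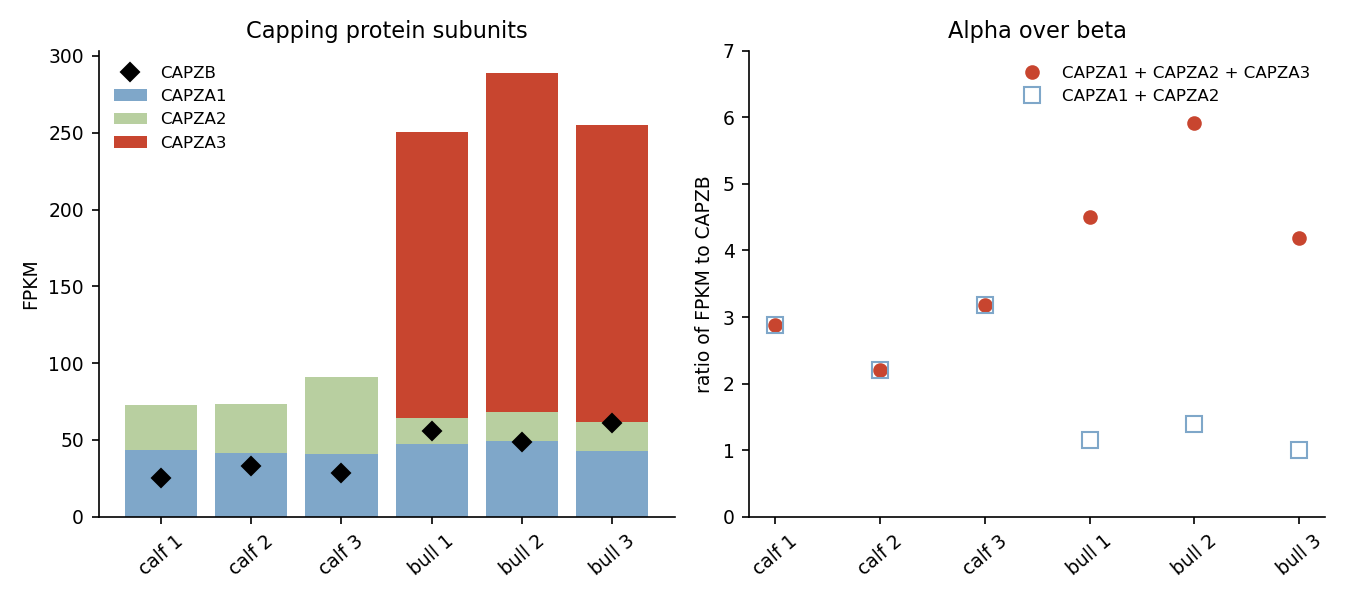
Left, FPKM of the 3 alpha subunit genes stacked for each library, with CAPZB as black diamonds. Right, the ratio of the alpha sum to CAPZB with CAPZA3 (filled circles) and without it (open squares), where both symbols coincide in the calves and lie at 4.18 to 5.91 and 1.01 to 1.40 in the bulls.

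Within the bulls, the order of the mean levels was ACTL7B (333 FPKM), CAPZA3 (200.3), ACTRT2 (164), ACTL7A (148), CCIN (110.4), ACTRT3 (66.1), CAPZB (55.2), ACTL9 (48.4) and CYLC2 (34.1). ACTL7B was separated from CAPZA3, ACTL7A from CCIN, CCIN from ACTRT3 and ACTL9 from CYLC2, with no overlap of their ranges over the bulls. The ranges overlapped for the other neighbours in this order. CAPZA3 exceeded ACTRT2 in 2 of 3 bulls. ACTRT2 exceeded ACTL7A, ACTRT3 exceeded CAPZB and CAPZB exceeded ACTL9 in 3 of 3 bulls, although their ranges overlapped. Among 16922 genes with a symbol, ranked by mean FPKM in the bulls, ACTL7B took place 97 and CYLC2 place 2300. In the calves CAPZB took place 1524, ACTRT3 place 12803, and the other 7 genes places 15395 to 16545.

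**Figure D3:**
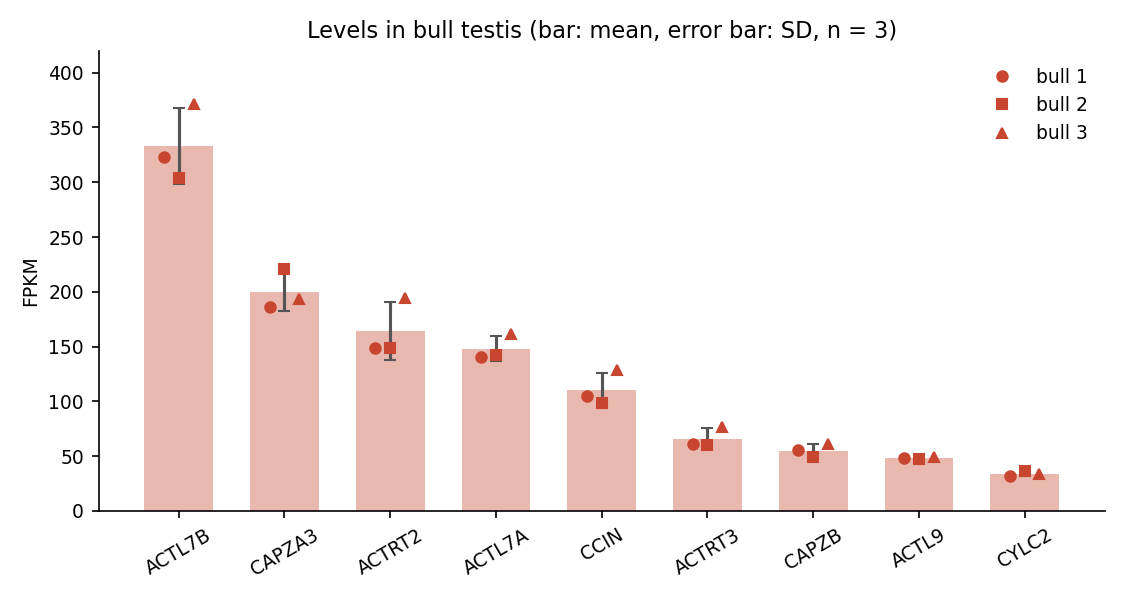
Mean FPKM (bars, error bars SD, n = 3) of the 9 genes in bull testis, in descending order, with each bull as a point. ACTL7B stands above the rest, and bull 3 (triangles) is the highest point for 7 of the 9 genes.

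The spread between the bulls was then set beside that of other genes. The coefficient of variation of the 9 genes had a median of 10.4% and ran from 1.6% in ACTL9 to 16.1% in ACTRT2. Over the 6474 genes called higher in bulls, its median was 14.8% and its quartiles were 8.35% and 27.0%. Bull 3 gave the highest value for 7 of the 9 genes, and bull 2 for CYLC2 and CAPZA3. Over the 6474 genes, bull 3 was the highest for 39.0%. This count was made after the values had been seen, and no test was made of it.

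In the calves, 9 of the 24 values of the 8 genes called higher were listed at 0, and 7 of the 9 genes stayed below 0.15 FPKM in all calves. Calf 3 had the lowest calf value in ACTL7B, CCIN and ACTRT2, and the highest in CAPZA3 and ACTRT3. ACTL7A and ACTL9 were at 0 in all calves, and CYLC2 in calf 1 and calf 3. The 5 spermatocyte markers summed to 13.7 and 19.9 FPKM in calf 1 and calf 2 and to 2.36 in calf 3, with 126 to 149 in the bulls. Of these markers, 4 (SYCP1, SYCP3, HORMAD1 and DMC1) reached an FPKM of 1 in both calf 1 and calf 2, whereas 0 of the 8 genes did. This comparison of detection was chosen after the values had been seen.

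The transcript table held 26 transcripts of the 9 genes, of which 15 carried Ensembl identifiers, and 6 genes had a single transcript. Of 13 transcripts tested, 11 were called higher and 2 were not called, beside 34.8% of all transcripts called higher. The calls of the 6 genes with a single transcript repeat the gene calls. These transcripts and those of ACTRT2 and ACTRT3 passed the filter through the bull libraries, so the count carries no test. The summed transcripts gave the gene value for 9 of 9 genes. ACTRT2 had 12 transcripts, 11 of them assembled from the reads, of which 7 were named as antisense. The assembled ones reached 3.26 FPKM at most. ACTRT2-201 (chromosome 16, 50032369 to 50033784) carried 97.1%, 96.2% and 95.4% of the gene in the bulls, so the gene value is in the main the value of this transcript.

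CAPZB had 6 transcripts. They were not matched to the beta isoforms of the protein. The leading one, CAPZB-201, had an FPKM of 18.3, 24.8 and 18.9 in the calves and of 31.5, 30.8 and 32.7 in the bulls, a difference of 0.60 that was not called (limma adjusted p = 0.0268). CAPZB-202 had 1.34, 1.503 and 3.54 in the calves and 8.62, 6.06 and 11.0 in the bulls. It was called higher, by 1.65 (SE 0.35, limma adjusted p = 0.00872), and by 1.95 without calf 3, the calf in which it was highest. CAPZB-203 had 4.09, 5.10 and 4.64 in the calves and 11.6, 9.22 and 13.2 in the bulls. Its difference of 1.13 (SE 0.20, limma adjusted p = 0.00383) was called higher, and was 0.57, not called, after quantile normalization. CAPZB-205 differed by 0.63 and was not called (limma adjusted p = 0.0195), and CAPZB-204 and CAPZB-206 were too low to be tested.

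As shares of the gene, CAPZB-201 was lower in each bull than in each calf, with 71.2% ± 4.38 and 57.8% ± 4.85. CAPZB-202 went from 7.41% ± 4.32 to 15.3% ± 2.85, and CAPZB-203 from 16.0% ± 0.511 to 20.5% ± 1.42 (SD, n = 3 each, exact permutation p = 0.1 and 0.15 after adjustment over the 6 transcripts in each case). For CAPZB-202, calf 3 (12.38%) came close to bull 2 (12.41%), the nearest approach between the groups, and without calf 3 the calf mean was 4.93% ± 0.563 (n = 2). CAPZB-205 stayed at 4.90% and 5.02%.

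ACTRT3 had 2 transcripts with the same start and end in the table, ACTRT3-201 and ACTRT3-202, whose shares were examined after the values had been seen. ACTRT3-202 made up 23.0%, 25.8% and 26.2% of the gene in the calves and 70.9%, 83.5% and 83.0% in the bulls. The lesser transcript of the calves was thus the greater one in each bull, with means of 25.03% ± 1.74 and 79.1% ± 7.15 (SD, n = 3 each, exact permutation p = 0.1). Without calf 3 the calf mean was 24.4% ± 1.96 (n = 2). Both transcripts were called higher, ACTRT3-202 by 5.39 (limma adjusted p = 1.26e-05) and ACTRT3-201 by 3.01 (limma adjusted p = 0.000258). The calf shares rest on transcript values of 0.193 to 1.14 FPKM, whose counting error was not computed.

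**Figure D4:**
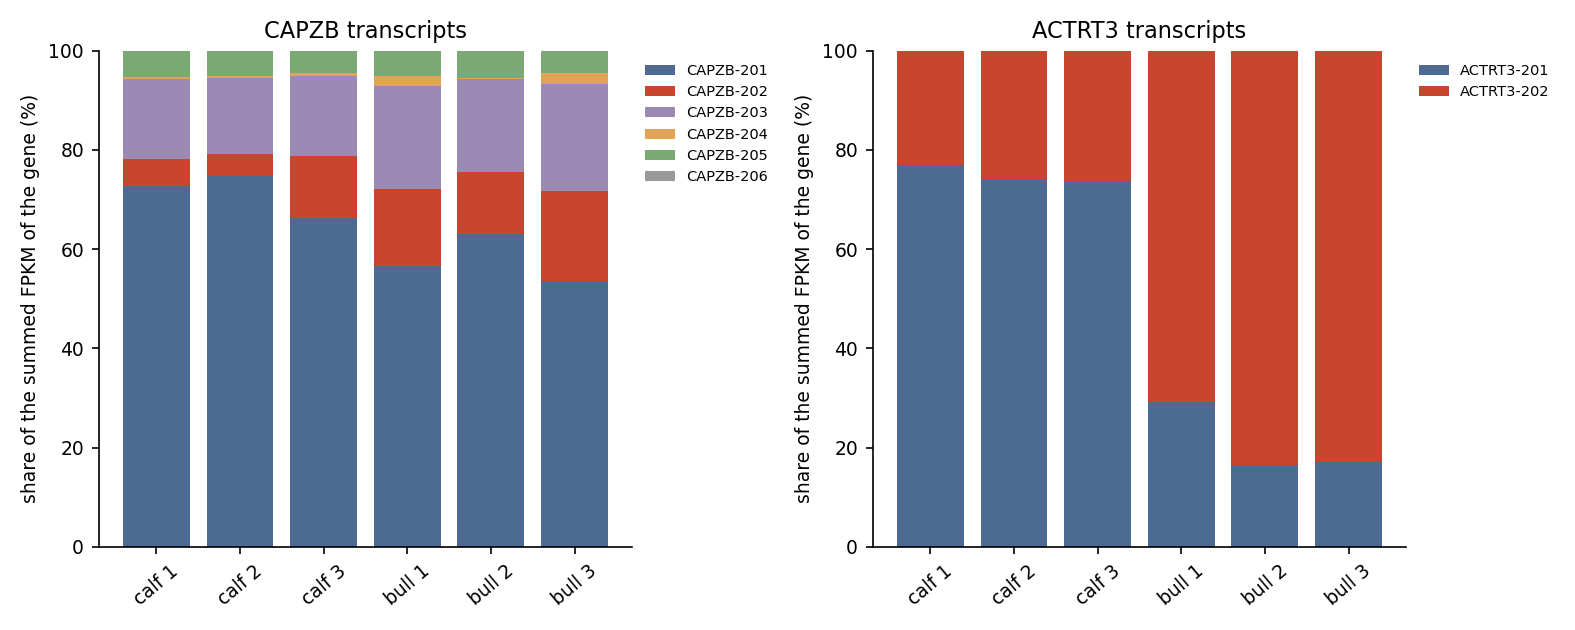
Share of each transcript in the summed FPKM of CAPZB (left) and of ACTRT3 (right), in percent, for each library. CAPZB-201 remains the largest CAPZB share in all libraries, and ACTRT3-202 goes from 23.0% to 26.2% in the calves to 70.9% to 83.5% in the bulls.

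The actin-like genes of the sperm head were next set against the cytoplasmic actins, a comparison also chosen after the values had been seen. ACTL7A, ACTL7B, ACTL9, ACTRT1, ACTRT2 and ACTRT3 summed to 1.02, 0.977 and 1.63 FPKM in the calves and to 747, 728 and 882 in the bulls. ACTB and ACTG1 together had 887, 1025 and 839 in the calves and 536, 440 and 496 in the bulls. The 6 genes therefore made up 0.115%, 0.0953% and 0.194% of the joint sum in the calves. In the bulls they made up 58.2%, 62.3% and 64.0%, more than the cytoplasmic actins in each bull. For calves against bulls the exact permutation p was 0.1, the smallest that 3 against 3 libraries allow. As the 6 genes were already known to be low in the calves, this p carries no support. Without calf 3 the calf mean of this share was 0.105%, against 0.135% with it. Alone, ACTB was called lower, by -1.08 (limma adjusted p = 0.01004) and by -1.17 without calf 3, a call that was lost after quantile normalization (-0.86) and without bull 2 (limma adjusted p = 0.0587). ACTG1 differed by -0.59 and was not called.

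The other genes of the theca and of the actin system were taken from lists. Of 10 theca and acroplaxome partners, 10 were called higher, with a median difference of 5.08, beside 35.7% of all genes. These 10 genes stayed called without calf 3 and after quantile normalization, beside 37.9% and 21.1% of all genes. All of them passed the filter on low values through the bull libraries, so these counts carry no test of the list. The partners with the highest levels in bulls were DPY19L2, an inner nuclear membrane protein that ties the acrosome to the nucleus, and ZPBP, a zona binding protein of the acrosomal matrix. DPY19L2 had 1.05, 1.58 and 0.133 in the calves and 126, 139 and 126 in the bulls, a difference of 6.17, and of 5.83 without calf 3. ZPBP had 5.96, 6.84 and 0.400 in the calves and 119, 127 and 104 in the bulls, a difference of 4.79, and of 3.99 without calf 3. Unlike the 8 genes called higher, 4 of these partners (DPY19L2, ZPBP, GSTO2 and SPACA1) reached an FPKM of 1 in both calf 1 and calf 2.

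Of 7 genes of the manchette, the microtubule skirt that shapes the spermatid nucleus, 6 were called higher, with a median of 2.99, beside 35.7% of all genes. The count was 6 without calf 3 and 5 after quantile normalization, beside 21.1% of all genes. Some of these genes, such as MEIG1, passed the filter on low values through the bull libraries, so the counts carry no test of the list. MEIG1, a transport adaptor of the manchette, had 0.172, 0.363 and 0 in the calves and 189, 206 and 213 in the bulls, and was called higher by 7.44 (limma adjusted p = 2.93e-06).

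The lists of the general actin system held calls in both directions. Of all genes, 35.7% were called higher and 9.61% lower, 37.9% and 13.6% without calf 3, and 21.1% and 25.1% after quantile normalization. Of 10 capping protein subunits and partners, 3 were called higher and 1 lower, with a median of 0.43, beside 35.7% and 9.61% of all genes. The split turned round after quantile normalization, with 1 higher, 3 lower and a median of -0.29, and was 3 and 2 without calf 3. PLEKHO1, which binds capping protein, was higher by 2.18, and TWF2, a twinfilin that binds actin monomers and capping protein, was lower by -1.37. CARMIL1, which removes capping protein from filament ends, was higher by 1.78, a call that was lost after quantile normalization and without any 1 of the bulls (limma adjusted p = 0.0574 to 0.0747). Of 5 conventional actins tested, 2 were called higher and 1 lower, also without calf 3, and 2 and 0 after quantile normalization, where the median went from 0.73 to -0.35. The smooth muscle actins ACTA2 and ACTG2 were the higher ones, by 1.80 and 1.72. ACTA2 is also a marker of peritubular myoid cells. Of the 5 markers of these cells, 2 were called higher, ACTA2 included, and 0 lower. Without calf 3, 2 were called higher and 1 (DES) lower.

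Among 11 other actin-related and actin-like genes, 1 was called higher and 2 lower, beside 35.7% and 9.61% of all genes. Their median was 0.31. Without calf 3 the counts were 2 and 2, beside 37.9% and 13.6%. After quantile normalization the counts were 0 and 3, beside 21.1% and 25.1%, with a median of -0.47. ACTR2, a core subunit of the filament-branching Arp2/3 complex, was lower by -1.22, and ACTL6B, a neuronal chromatin remodelling subunit, was lower by -1.37. ACTL6A, the chromatin remodelling subunit of most dividing cells, was higher by 1.13, a call lost without calf 3 (0.78), without any 1 of the bulls and under each alternative scaling. ACTL8 had 3.101, 3.37 and 0 in the calves and 5.002, 6.16 and 4.73 in the bulls and was not called (limma adjusted p = 0.119). Of 11 monomer and severing regulators, 2 were called higher and 3 lower, beside 35.7% and 9.61% of all genes. Their median was -0.57. Without calf 3 the counts were 3 and 3, and after quantile normalization 2 and 4. The 2 higher ones were the testis profilins, PFN3 with 0.294, 0 and 0.0183 in the calves and 118, 130.5 and 159 in the bulls, and PFN4, higher by 4.80. PFN2, the neuronal profilin, was lower by -1.35. It was not called without calf 3 (-0.88), in which it stood at 70.1 FPKM, without calf 2 (limma adjusted p = 0.0629), without any 1 of the bulls (limma adjusted p = 0.0941 to 0.111), with no filter on low values or with library weights (-0.90). TMSB4X, the actin monomer-binding thymosin, was lower by -1.07 and was not called after quantile normalization (-0.35) or without any 1 of the bulls.

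**Figure D5:**
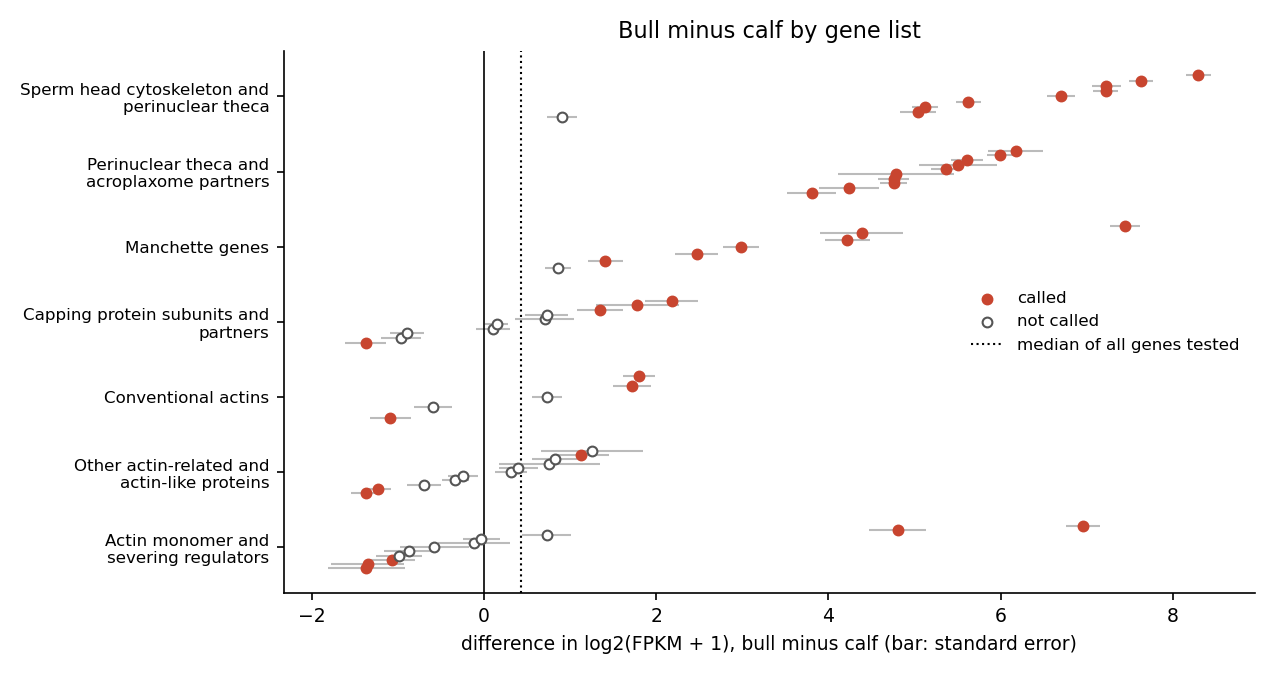
Difference in log2(FPKM + 1), bull minus calf, of each tested gene of the 7 lists (points, bars show the standard error), with called genes filled and the median of all genes, 0.43, dotted. The 9 sperm head genes and their theca partners lie far to the right apart from CAPZB, and the 4 lists of the general actin system lie on both sides of 0.

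On the chromosomes, 4 of the 9 genes (ACTL7A, ACTL7B, CCIN and CYLC2) lie on chromosome 8, which holds 3.49% of the genes tested. Of its 633 tested genes, 42.3% were called higher, beside 35.7% of all genes. The nearest named genes on each side came to 16 that were not among the 9, and 12 of them were tested. PLCZ1, KLF4 and MECOM, a zinc finger gene 670362 bases from ACTRT3, were called higher, beside 35.7% of all genes, and 9 were not called. MECOM differed by 1.29, and by 0.66, not called, after quantile normalization. MYNN, another zinc finger gene, whose end lies 453 bases before ACTRT3, differed by -0.26 and was not called. ADAMTS10 beside ACTL9 (-0.85) and CLTA beside CCIN (-0.71) were not called, and both were called lower without calf 3 (-1.03 and -1.13) and after quantile normalization (-1.72 and -1.39). GRIN3A beside CYLC2 differed by -1.28 without a call, and was called lower without calf 2 (-1.66) and after quantile normalization (-1.86). SMC2 (-0.02) and PQLC2 (0.17) were not called, and OR2Z1, PRDM16, TTC34 and the locus named bta-mir-2285y were too low to be tested.

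The genes most like ACTL7A, CAPZA3 and CAPZB were found by the smallest mean absolute difference in log2(FPKM + 1) over the 6 libraries. For ACTL7A these were TEX50 (0.0366), TEX35 (0.0585) and NT5C1B (0.0635). For CAPZA3 they were IQCF5 (0.0441), BPIFA3 (0.0868) and ADAM2 (0.0870), the last of them a subunit of the sperm surface protein fertilin. For CAPZB they were AKIRIN1 (0.117), DDX31 (0.131) and AP3D1 (0.142), all 3 of which had 22.9 to 35.0 FPKM in the calves and 49.9 to 61.4 in the bulls. The likeness is a description over 6 libraries of 2 groups.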

How the data were processed

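Testis RNA of 3 calves and 3 bulls was analysed, 1 library per animal. The authors deposited FPKM values of genes and transcripts, with no counts. Their Methods name Bowtie2 for the removal of ribosomal reads, TopHat2 for mapping and StringTie for assembly, and the assembly UMD 3.1.1. The Methods describe strand-specific libraries and name Cuffdiff for levels of circular RNAs. The program behind the gene FPKM values, and its strand setting, are not given in the sources used here. Gene positions are those of the tables, and all 9 genes overlapped the locus of the same symbol in a RefSeq annotation of ARS-UCD2.0. No depth could be recovered from the FPKM values themselves, since at most 4.22% of low values lay within 0.5% of the commonest ratio to calf 1. The authors' supplement lists the clean reads of each library, but these were not used here, and no counting interval was computed.

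Groups followed the labels. Values were taken as log2(FPKM + 1), a pseudocount that understates the change of low genes. Features reaching an FPKM of 1 in 3 or more libraries entered a limma fit (limma 3.58.1, R 4.3.3, empirical Bayes trend, two-sided, adjusted by Benjamini-Hochberg over all those features). Calls required a difference of 1 in size and an adjusted p under 0.05. On simulated data, 200 features were changed by a log2 difference of 2. The gene comparison recovered 179 with 3 false calls among 12761 genes, and the transcript comparison recovered 157 with 12 among 13786 transcripts. The simulated noise followed the spread of the bulls, calf 1 and calf 2. Only features with a bull mean above 2 in log2(FPKM + 1) were simulated. Recovery with a library such as calf 3, or with calf values near 0, was not tested. Shares and ratios were compared by exact permutation (20 labelings, SciPy 1.17.1), and figures used matplotlib 3.10.9. Each animal was taken as 1 replicate.

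The 9 genes, the lists and the tests were chosen with earlier results of these data known. Genes were named by rule: the 9 genes, their paralogs, the 2 called genes with the highest mean FPKM per list and direction, the nearest named genes on each side, and the 3 genes most like ACTL7A, CAPZA3 and CAPZB. Some genes that this rule names are not reported here. GSTO2, SPACA1 and the spermatocyte markers were named after their values were seen. FAM209B, RIMBP3, SPAG16, WASHC2C, ACTL10 and ACTR3B were not analysed here. Of further markers, macrophage genes gave 1 lower call of 2 tested, endothelial genes 0 calls of 3, and Sertoli genes 1 lower call of 7 (7 of 7 without calf 3). Of 7 tested rows of the Leydig markers 0 were called, also without calf 3. Brain markers gave 0 calls of 7 tested. Of all genes, 35.7% were called higher and 9.61% lower, and 37.9% and 13.6% without calf 3. Alternatives changed the pseudocount, filter, scaling, trend, library weights, replicate block and libraries used. Histology, RT-qPCR and circular RNAs were not analysed here.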

Additional observations from a re-analysis of the deposited data

How the results depend on the processing

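The 8 called genes kept their call under all 14 alternatives in which they were tested. Requiring an FPKM of 1 in all libraries removes genes near 0 in the calves by construction, so that 0 of the 9 genes, 12 genes of the related lists (31 otherwise), 3358 genes (8215 otherwise) and 3084 transcripts (10255 otherwise) were called. The CAPZB difference was 0.82 to 1.01 when 1 library was left out. The CAPZB-206 share difference was 0 with values under 1 FPKM set to 0. With the replicate block, 8128 genes, 10087 transcripts, 8 of the 9 genes and 30 related genes were called, TMSB4X being lost (adjusted p = 0.0638). Same-numbered libraries deviated together with correlations of 0.0246 to 0.0341 only, so the numbers were not taken as pairs. The split of calls over all genes, 6474 higher and 1741 lower, became 3827 and 4538 after quantile normalization, with median differences of -0.26, and of 0.30 and 0.19 under the other scalings. CAPZB lay above that median under each scaling. The counting error of values near 0 was not computed, and 3 animals against 3 cannot go below an exact p of 0.1.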
